A study of Mus musculus with 6 samples.

Results

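The Hox genes of the proximal mouse epididymis were examined in mice given busulfan or its solvent. They were taken as every row of the deposited table whose symbol is Hoxa, Hoxb, Hoxc or Hoxd followed by a number, which gave 39 of 24346 genes. The rule uses the symbol alone. The tissue was the proximal epididymis, initial segment and caput together, where sperm and testicular fluid enter the duct. The busulfan group held 3 libraries from 12-week-old wild-type mice given busulfan, an alkylating agent that kills male germ cells, by intraperitoneal injection. The DMSO group held 3 libraries from 12-week-old wild-type mice injected by the same route with dimethyl sulfoxide (DMSO). Strain, dose and the interval from injection to dissection were not given in the sources used here. Effects of busulfan on the epididymis itself and effects that follow from germ cell loss cannot be told apart in this design.

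Hox genes encode transcription factors that bind DNA through a homeodomain. In mammals they lie in 4 clusters, Hoxa to Hoxd, and members that occupy the same place in different clusters form a paralog group, numbered from 1 at the anterior end to 13 at the posterior end. Their order along the chromosome matches the order in which they are expressed along the body axis of the embryo, and in the developing genital ducts different posterior members mark the epididymis, the vas deferens and the uterus. Many Hox proteins bind DNA together with homeodomain cofactors of the PBX and MEIS families, while Polycomb proteins keep Hox genes silent and trithorax-type proteins keep them active.

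Levels are the authors' normalized FPKM, in which fragments are divided by gene length so that genes of different length can be compared. How the libraries were normalized against each other was not given in the sources used here. Counts of genes higher and lower in busulfan changed with that scaling, as given below. The summed FPKM lay between 625087 and 666662 in the busulfan libraries and between 707219 and 732495 in the DMSO libraries. The spacing of low values put the depth roughly at 12300000 to 13600000 fragments per busulfan library and 13100000 to 14400000 per DMSO library. The labels do not say that each library is a separate mouse, so the p-values measure only how far these samples spread, part of which may be technical. Genes whose mean over all 6 libraries reached 1 FPKM were compared with limma on log2(FPKM + 1), and a gene was counted as higher or lower in busulfan at a Benjamini-Hochberg adjusted p under 0.05. The caput part of the tissue label was matched by Gpx5, a secreted peroxidase of the caput. Gpx5 stood at 28640 ± 1786 FPKM in busulfan and 35290 ± 656 in DMSO (SD, n = 3 each). Of 18 tested initial segment and caput markers, however, 15 were lower and 2 higher in busulfan, with a median log2 change of -4.74. Of all genes tested, 22.1% were lower and 20.8% higher. Lcn8 stood at 26.5 ± 3.67 FPKM in busulfan and 12280 ± 457 in DMSO, and Defb48 at 1.81 ± 0.245 and 7778 ± 489. Gpx5 alone does not bear out the initial segment part of the label in the busulfan libraries.

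Of the 39 Hox genes, 25 reached the mean of 1 FPKM. The Hoxb cluster was the most complete, with 9 of 10 members, while 5 of 11 Hoxa, 5 of 9 Hoxc and 6 of 9 Hoxd members reached it. The limit ran along the paralog groups: 24 of 27 members of groups 1 to 9 were above it, but only Hoxd10 among the 12 members of groups 10 to 13. In both groups of mice the Hox mRNA was dominated by a few genes. Hoxb6, Hoxd8, Hoxb7, Hoxb8 and Hoxd4 together made up 68.4% to 71.5% of the summed Hox FPKM in the busulfan libraries and 75.1% to 75.8% in the DMSO libraries. In busulfan the order was Hoxd8, Hoxb6, Hoxb7, Hoxd4 and Hoxb8, whose means were 157, 136, 89.2, 85.1 and 71.9 FPKM, and the libraries of Hoxb7 overlapped those of Hoxd4, which overlapped those of Hoxb8. In DMSO the order was Hoxb6, Hoxb7, Hoxd8 and Hoxb8, with means of 190, 172, 152 and 88.0 FPKM. None of these neighbours overlapped in DMSO, and Hoxd4 came after Hoxd9 in sixth place, at 40.3 FPKM against 43.8 for Hoxd9, with overlapping libraries.

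**Figure D1:**
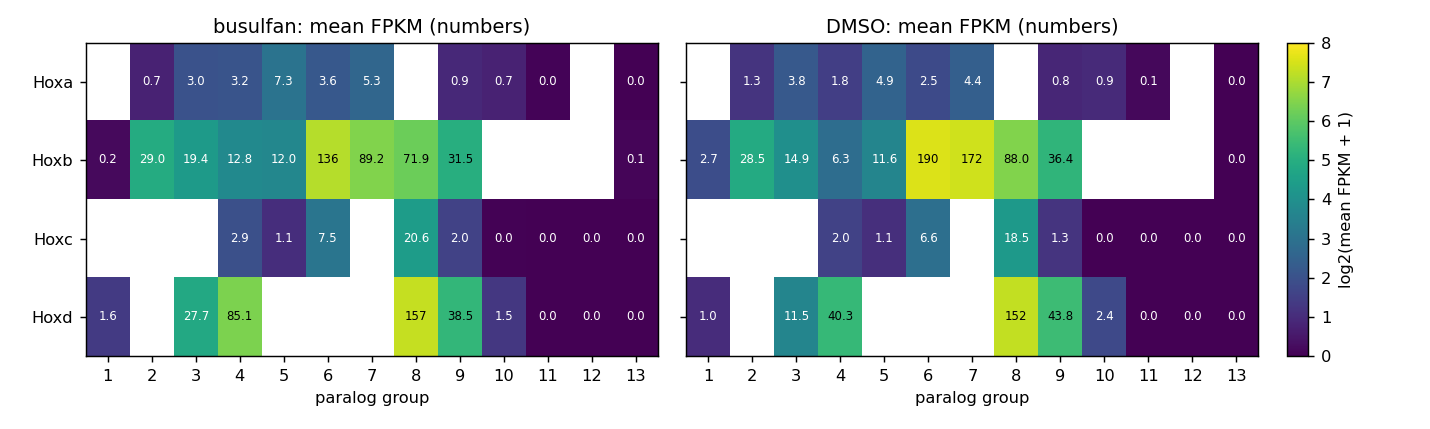
Mean Hox mRNA level by cluster (rows) and paralog group (columns) in busulfan (left) and DMSO (right). Colour gives log2(mean FPKM + 1), the printed numbers are mean FPKM of 3 libraries, and white marks a place with no gene or a gene not shown. Levels are concentrated in groups 6 to 9 of Hoxb and Hoxd, and Hoxd3 and Hoxd4 are brighter in the busulfan panel (27.7 and 85.1 FPKM) than in the DMSO panel (11.5 and 40.3 FPKM).

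Between busulfan and DMSO, 12 of the 25 tested Hox genes passed the threshold, or 48.0%, which is close to the 42.8% of all 12848 genes tested. Of these 12, 6 were higher and 6 lower in busulfan, 24% each, against a background of 20.8% higher and 22.1% lower. The count is therefore near that of the tissue as a whole. Of the 25, 7 were higher and 7 lower in busulfan with no overlap between the libraries of the groups. Over all genes tested, 26.9% were higher and 27.7% lower without overlap, so such separation was common. The median log2 change was 0.16 over the tested Hox genes and -0.00 over all genes, and the median size of the change without its sign was 0.34 against 0.20. All 6 Hox genes that rose belong to paralog groups 3 to 5, where 10 members were tested and none fell. Of the 6 that fell, 5 belong to groups 6 to 9, where 11 were tested and none rose, and the other is Hoxb1. These 5 are Hoxb6 to Hoxb9 and Hoxd9, and the median log2 change of the 11 was 0.05. Hoxa6, Hoxc8 and Hoxc9 of the same groups each passed as higher when a single library was left out. Hoxb1 reached the mean of 1 FPKM only through its DMSO libraries. With libraries set to equal summed FPKM 8 Hox genes were higher, Hoxd8 and Hoxc9 of groups 8 and 9 among them, and 4 lower, and with quantile normalization 7 were higher, Hoxd8 among them, and 4 lower. The division by paralog group was drawn after the values were seen and carries no test.

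**Figure D2:**
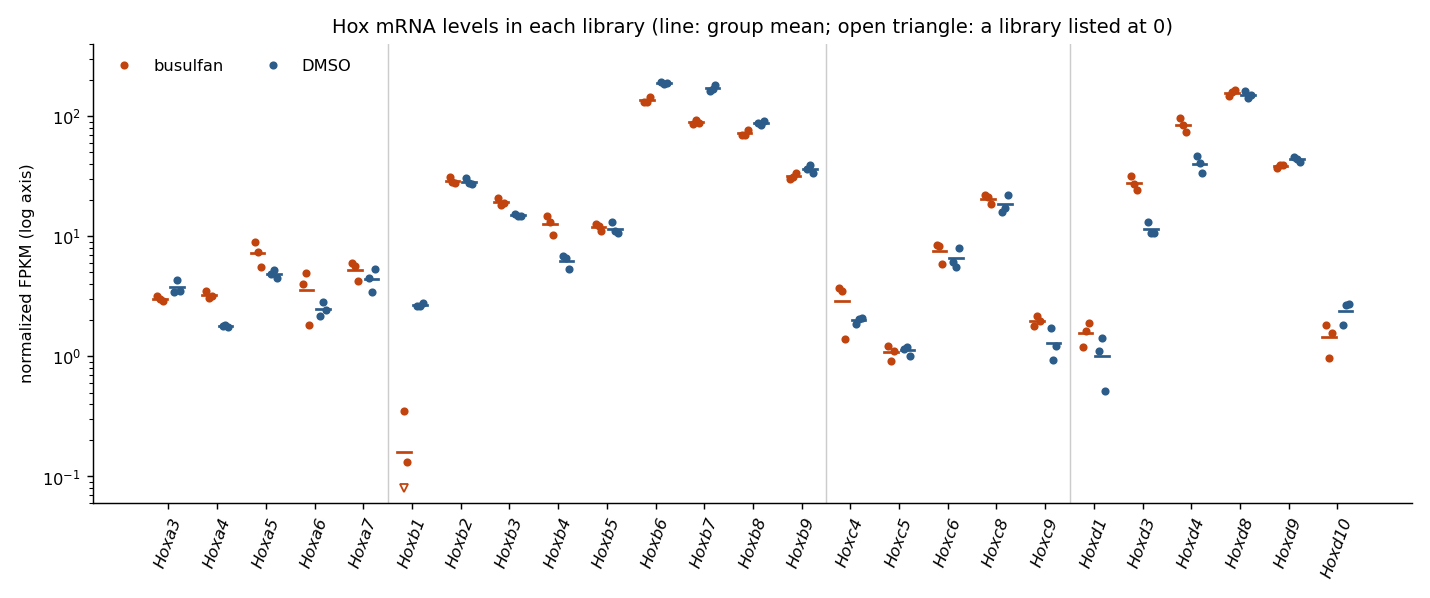
Normalized FPKM (log axis) of the 25 tested Hox genes in each library, ordered by cluster and paralog group, with busulfan points left of DMSO points. Lines are group means of 3 libraries and the open triangle is the busulfan library in which Hoxb1 is listed at 0. The groups do not overlap for 7 genes higher and 7 lower in busulfan, Hoxa4, Hoxb1, Hoxb4, Hoxb6, Hoxb7, Hoxd3 and Hoxd4 among them. Over all 12848 genes tested, 26.9% were higher and 27.7% lower without overlap. The groups lie together for Hoxb2, Hoxb5 and Hoxd8.

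Hoxd3 and Hoxd4, neighbours at the anterior end of the Hoxd cluster, had the largest rises. Hoxd3, a paralog group 3 gene needed in mice for the first vertebrae of the neck (chromosome 2, 74711927 to 74748442, plus strand, GRCm38), had 31.6, 27.4 and 24.1 FPKM in busulfan and 13.1, 10.6 and 10.7 FPKM in DMSO. Hoxd4 (chromosome 2, 74711929 to 74729160, plus strand), a group 4 gene that also patterns neck vertebrae and hindbrain, had 97.3, 84.1 and 73.9 FPKM in busulfan and 46.6, 40.6 and 33.8 FPKM in DMSO. Each busulfan library lay above every DMSO library for both genes. Hoxd3 was 2.42-fold higher, a log2 change of 1.20 (SE 0.11, limma adjusted p = 7.79e-05), and Hoxd4 was 2.11-fold higher, a log2 change of 1.06 (SE 0.13, limma adjusted p = 0.000349). A change as large as that of Hoxd3, in either direction, was seen in 3.35% of tested genes, and one as large as that of Hoxd4 in 4.27%. The models of the pair share 388 exonic bases on the same strand, 9.26% of Hoxd3 and 13.2% of Hoxd4, and together with the readthrough gene Gm28230 the shared part is 62.3% of Hoxd3 and 52.3% of Hoxd4. How fragments were assigned among these models is not given in the sources used here, so the separate values of Hoxd3 and Hoxd4 are uncertain.

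Beyond the Hoxd cluster, all group 4 genes but Hoxc4 rose. Hoxb4, known for its use in expanding blood stem cells (chromosome 11, 96318267 to 96321638, plus strand), had 14.9, 13.1 and 10.3 FPKM in busulfan and 6.81, 6.60 and 5.39 FPKM in DMSO. It shares no exonic base with another model, and its libraries were separate between the groups, with a log2 change of 0.91 (SE 0.13, limma adjusted p = 0.000843). Hoxa4 (chromosome 6, 52189671 to 52191753, minus strand) was expressed at a lower level, with 3.48, 3.07 and 3.20 FPKM in busulfan and 1.79, 1.82 and 1.76 FPKM in DMSO, a 1.81-fold rise (log2 change 0.60, SE 0.09, limma adjusted p = 0.00088). Hoxc4 had 3.70, 3.51 and 1.40 FPKM in busulfan and 1.85, 2.03 and 2.11 FPKM in DMSO. Busulfan replicate 3 was below every DMSO library and the other busulfan libraries above, so Hoxc4 did not pass (log2 change 0.31, 95% interval -0.24 to 0.85, limma adjusted p = 0.332); without busulfan replicate 3 it did (adjusted p = 0.00271). The summed level of the 4 group 4 genes was 104 ± 15.3 FPKM in busulfan and 50.4 ± 6.99 FPKM in DMSO (SD, n = 3 each). Hoxd4, whose separate value is uncertain, gave 85.1 and 40.3 FPKM of these sums. Over whole transcripts, the longest identical run between tested members of different clusters was 52 bases (229 pairs).

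Hoxb3 and Hoxa5 completed the genes that rose. Hoxb3, a hindbrain and pharyngeal patterning gene, had 20.8, 18.3 and 18.9 FPKM in busulfan and 15.3, 14.7 and 14.8 FPKM in DMSO. Its groups were separate by a small margin, a 1.29-fold rise (log2 change 0.35, SE 0.06, limma adjusted p = 0.00239). The antisense gene Hoxb3os covers 52.9% of its exonic bases, and the strand setting of the authors' counting is not given in the sources used here, so fragments of the pair may not have been told apart. Antisense models also cover 27.3% of the exonic bases of Hoxb2, 25.4% of Hoxa3, 20.4% of Hoxa7 and 16.0% of Hoxa4. Hoxa5, which is needed for lung development in mice, had 8.92, 7.45 and 5.61 FPKM in busulfan and 4.90, 5.25 and 4.48 FPKM in DMSO. The lowest busulfan library lay just above the highest DMSO library, a rise to 150.2% of the DMSO mean (log2 change 0.48, limma adjusted p = 0.0239). The call was lost without busulfan replicate 1 or 2, without DMSO replicate 1 or 3, and with no filter on low values, where the log2 change was 0.35 to 0.49 and the adjusted p 0.0515 to 0.0804. Hoxa3, the remaining group 3 gene, needed in mice for the thymus and parathyroid, had 3.16, 3.01 and 2.91 FPKM in busulfan and 3.44, 4.34 and 3.48 FPKM in DMSO. All its busulfan libraries were lower, but it did not pass (log2 change -0.23, 95% interval -0.46 to -0.01, limma adjusted p = 0.085).

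Hoxb1 showed the largest change of any tested Hox gene, and it was a fall. Hoxb1, which specifies a segment of the embryonic hindbrain and lies at the anterior end of its cluster (chromosome 11, 96365752 to 96368256, plus strand), was listed at 0, 0.348 and 0.133 FPKM in busulfan and had 2.62, 2.65 and 2.80 FPKM in DMSO. The busulfan libraries were all far below the DMSO libraries, which differed little among themselves. Its mean over all 6 libraries, 1.42 FPKM, reached the limit for testing only through DMSO, at 2.69 FPKM against 0.160 in busulfan. The test and rank of Hoxb1 are therefore not independent of its high DMSO level. The log2 change was -1.68 (SE 0.14, limma adjusted p = 4.2e-05), a size reached by 1.81% of tested genes, and -3.67 with a pseudocount of 0.1 (limma adjusted p = 0.000791). By the rough depth estimate these levels stand for about 0, 8.9 and 3.0 fragments in busulfan and 64.4, 69.3 and 74.2 fragments in DMSO. Hoxd1, the other tested group 1 gene, had 1.20, 1.62 and 1.90 FPKM in busulfan and 1.11, 1.41 and 0.512 FPKM in DMSO, with overlapping groups (log2 change 0.37, 95% interval -0.07 to 0.81, limma adjusted p = 0.154).

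The other falls were a run of neighbours in the Hoxb cluster, Hoxb6 to Hoxb9, together with Hoxd9. Hoxb7 (chromosome 11, 96286623 to 96290162, plus strand), whose promoter fragment is widely used to drive transgenes in the Wolffian duct and ureteric bud, had 86.9, 92.5 and 88.3 FPKM in busulfan and 164, 170 and 182 FPKM in DMSO. The groups were far apart, and 51.9% of the DMSO mean remained in busulfan (log2 change -0.94, SE 0.05, limma adjusted p = 5.86e-06). Hoxb6, its neighbour and the most abundant Hox gene in DMSO, had 133, 130 and 145 FPKM in busulfan and 192, 187 and 189 FPKM in DMSO, so 71.6% remained (log2 change -0.48, limma adjusted p = 0.000201). Hoxb8, which acts in blood and nervous system cells in mice, had 70.1, 69.6 and 76.2 FPKM in busulfan and 88.2, 85.2 and 90.5 FPKM in DMSO, so 81.8% remained (log2 change -0.29, limma adjusted p = 0.00317). Among Hoxb6 to Hoxb9 the fall was largest at Hoxb7. These 3 genes share no exonic base with another model.

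The falls of the group 9 genes were small. Hoxb9 had 30.1, 31.1 and 33.4 FPKM in busulfan and 36.1, 39.3 and 34.0 FPKM in DMSO, with 86.5% remaining (log2 change -0.20, limma adjusted p = 0.0411). Hoxd9 had 36.8, 39.3 and 39.5 FPKM in busulfan and 46.2, 43.7 and 41.5 FPKM in DMSO, with 88.1% remaining (log2 change -0.18, limma adjusted p = 0.0358). Both group 9 genes, whose paralogs act together in limb and mammary gland development in mice, were separate between the groups by a narrow margin, and both calls were lost in most alternative analyses. They were lost without busulfan replicate 1 or 2 and without DMSO replicate 1 or 2, with limma adjusted p between 0.082 and 0.13 for Hoxb9 and between 0.072 and 0.104 for Hoxd9, and when libraries were set to equal summed FPKM the adjusted p was 0.582 for Hoxb9 and 0.738 for Hoxd9.

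Ratios between members within a library, for pairs chosen after their values were seen, restate the changes already given. Hoxd4 stood at 1.12, 0.909 and 0.836 times the FPKM of Hoxb7 in busulfan and at 0.284, 0.239 and 0.186 times in DMSO. Hoxb3 relative to its neighbour Hoxb2 was 0.669, 0.649 and 0.685 in busulfan and 0.501, 0.533 and 0.541 in DMSO.

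**Figure D3:**
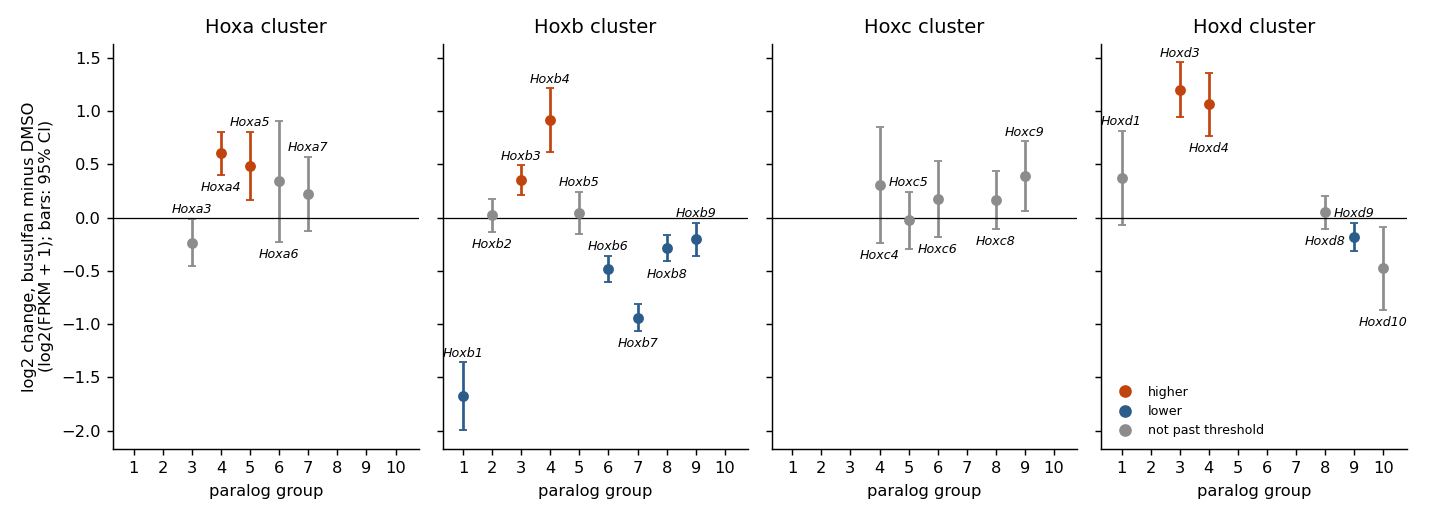
Log2 change (busulfan minus DMSO on log2(FPKM + 1)) of each tested Hox gene by cluster and paralog group, with 95% confidence intervals from limma (3 libraries per group). Coloured points passed the adjusted p threshold of 0.05. The points above 0 that passed are in groups 3 to 5 and those below 0 are Hoxb1, Hoxb6 to Hoxb9 and Hoxd9, while no Hoxc gene passed.

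Among the remaining tested members, Hoxd8, Hoxb2 and Hoxb5 had the changes nearest to 0 together with Hoxc5. Hoxd8 had 147, 158 and 167 FPKM in busulfan and 162, 143 and 150 FPKM in DMSO, with overlapping groups and a log2 change of 0.05 (95% interval -0.10 to 0.20, limma adjusted p = 0.58). Hoxb2, a hindbrain patterning gene at 31.1, 28.2 and 27.7 FPKM in busulfan and 30.6, 27.7 and 27.4 FPKM in DMSO, had a log2 change of 0.02 (95% interval -0.13 to 0.18, limma adjusted p = 0.811). Hoxb5, at 12.6, 12.2 and 11.1 FPKM in busulfan and 13.1, 11.1 and 10.6 FPKM in DMSO, had a log2 change of 0.05 (95% interval -0.15 to 0.24, limma adjusted p = 0.703). Hoxb2 and Hoxb5 therefore lie on either side of Hoxb3 and Hoxb4, which rose, in the same cluster.

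No Hoxc gene passed, with 5 tested. Hoxc8, the most abundant of them and a gene of the thoracic skeleton and spinal motor neurons, had 22.0, 21.3 and 18.6 FPKM in busulfan and 16.1, 17.1 and 22.2 FPKM in DMSO (log2 change 0.16, 95% interval -0.11 to 0.43, limma adjusted p = 0.301), and it passed only without DMSO replicate 3 among the libraries left out (adjusted p = 0.0339). Hoxc6 had 8.46, 8.25 and 5.92 FPKM in busulfan and 6.07, 5.57 and 8.05 FPKM in DMSO, and Hoxc5 had 1.23, 0.919 and 1.12 FPKM in busulfan and 1.15, 1.21 and 1.01 FPKM in DMSO. The libraries of these 3 genes overlapped between the groups, and the log2 changes of Hoxc6 and Hoxc5 were 0.18 and -0.03 (limma adjusted p = 0.391 and 0.876). Hoxc9 had 1.78, 2.15 and 1.97 FPKM in busulfan and 1.72, 0.936 and 1.21 FPKM in DMSO, all busulfan libraries above DMSO, and missed the threshold (log2 change 0.39, 95% interval 0.06 to 0.71, limma adjusted p = 0.0579), which it passed without DMSO replicate 1 (adjusted p = 0.0182).

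In the Hoxa cluster, Hoxa6 had 3.997, 4.97 and 1.84 FPKM in busulfan and 2.16, 2.86 and 2.42 FPKM in DMSO. As for Hoxc4, busulfan replicate 3 was the lowest of all 6 libraries, and Hoxa6 passed only without it (log2 change 0.34 and limma adjusted p = 0.302 with it, adjusted p = 0.0063 without). Hoxa7 had 5.95, 5.64 and 4.28 FPKM in busulfan and 4.51, 3.41 and 5.31 FPKM in DMSO, with overlapping groups (log2 change 0.22, limma adjusted p = 0.273). Hoxd10, a limb and spinal cord gene and the only tested member of groups 10 to 13, had 1.83, 0.969 and 1.56 FPKM in busulfan and 1.81, 2.67 and 2.71 FPKM in DMSO (log2 change -0.47, 95% interval -0.86 to -0.09, limma adjusted p = 0.0525). It passed without busulfan replicate 1 (adjusted p = 0.0361) or without DMSO replicate 1 (adjusted p = 0.0298).

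The 14 members under a mean of 1 FPKM were mostly posterior. Hoxa13, Hoxc11, Hoxc12, Hoxc13, Hoxd12 and Hoxd13 were listed at 0 in all 6 libraries, and Hoxa11, Hoxb13, Hoxc10 and Hoxd11 did not exceed 0.257 FPKM in any. Hoxa9 and Hoxa10, of which Hoxa10 is active in the developing uterus and vas deferens, had 0.757 to 1.03 and 0.447 to 0.809 FPKM in busulfan and 0.448 to 1.11 and 0.363 to 1.36 FPKM in DMSO. Hoxa2 had 0.960, 0.646 and 0.528 FPKM in busulfan and 1.61, 1.04 and 1.22 FPKM in DMSO, with no overlap. It did not enter the main comparison, and it did not pass when no filter was applied (log2 change -0.42, limma adjusted p = 0.0515).

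The make-up of the Hox mRNA pool differed more than its total. All Hox genes summed to 773 ± 6.31 FPKM in busulfan and 851 ± 17.4 FPKM in DMSO (SD, n = 3 each), a ratio of 0.908, and as a share of the summed FPKM of the library they were 0.120% in busulfan and 0.118% in DMSO. The Hoxb cluster summed to 402 ± 7.94 FPKM in busulfan and 550.1 ± 6.25 FPKM in DMSO, or 52.0% and 64.6% of the Hox total. The Hoxd cluster summed to 312 ± 3.79 FPKM in busulfan and 251 ± 17.6 FPKM in DMSO, or 40.3% and 29.4%. Groups 1 to 4 held 24.1% ± 2.61 of the Hox total in busulfan and 13.4% ± 1.13 in DMSO, and group 7 held 12.2% ± 0.446 in busulfan and 20.7% ± 1.30 in DMSO. Hoxd4 was the largest part of groups 1 to 4, at 85.1 of 186 FPKM in busulfan and 40.3 of 114 FPKM in DMSO. The share of groups 1 to 4 therefore restates Hoxd4 only in part. Hoxb7 was nearly all of group 7, so that share largely restates a single gene. The Hoxa and Hoxc sums overlapped between the groups, at 25.6 ± 4.28 and 34.1 ± 4.44 FPKM in busulfan and 20.9 ± 0.731 and 29.4 ± 4.48 FPKM in DMSO.

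**Figure D4:**
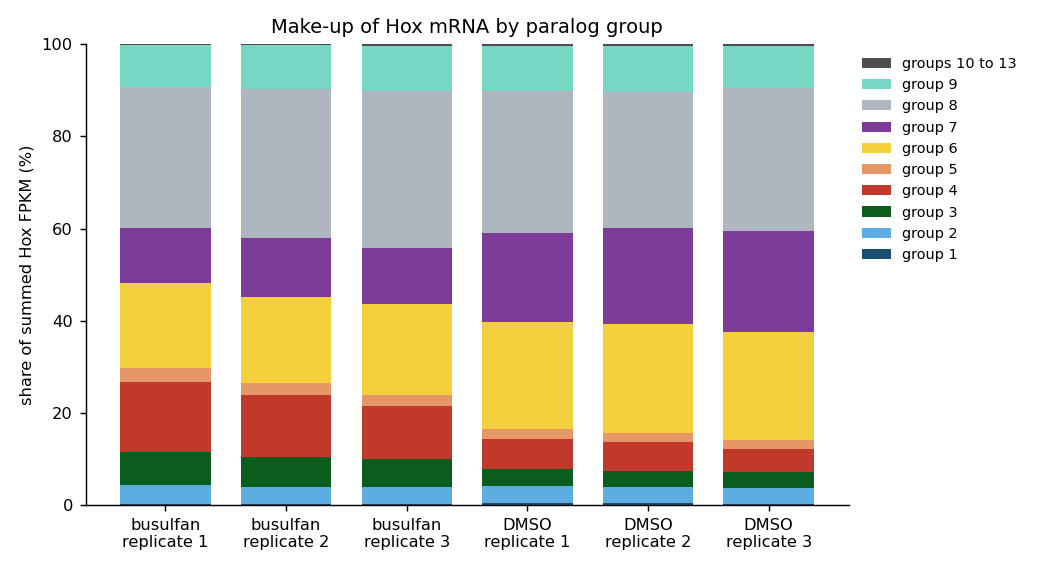
Share of the summed Hox FPKM (%) held by each paralog group in each library, busulfan left and DMSO right. Group 4 takes 13.4% ± 1.87 of the sum in the busulfan libraries and 5.92% ± 0.778 in the DMSO libraries, and group 7 takes 12.2% ± 0.446 in busulfan and 20.7% ± 1.30 in DMSO. Most of group 4 is Hoxd4 and most of group 7 is Hoxb7.

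Promoter windows of the Hox genes were searched for 6 short motifs. RefSeq windows of 250 bases before to 50 after the start (GRCm38.p6) were at hand for 22 of the 39 members, 24 windows in all. The motifs shown are AGGTCA, the core bound by nuclear receptors such as the retinoic acid receptors that control anterior Hox genes in the embryo, and TGATNNAT, a site bound by HOX and PBX proteins together, on either strand. The 250 bases before the start are shown for Hoxd3 (chr2:74711743-74711992), Hoxd4 (chr2:74721728-74721977) and Hoxb4 (chr11:96318017-96318266), which rose, and for Hoxb1 (chr11:96365508-96365757) and Hoxb8 (chr11:96281655-96281904), which fell, all on the plus strand and 5′ to 3′. Capitals mark a match to AGGTCA or TGATNNAT on either strand.
Hoxd3: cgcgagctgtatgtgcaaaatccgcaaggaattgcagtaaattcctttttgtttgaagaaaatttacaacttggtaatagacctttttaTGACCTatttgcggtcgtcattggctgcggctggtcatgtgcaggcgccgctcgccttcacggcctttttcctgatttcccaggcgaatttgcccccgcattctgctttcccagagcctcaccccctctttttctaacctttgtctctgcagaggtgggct
Hoxd4: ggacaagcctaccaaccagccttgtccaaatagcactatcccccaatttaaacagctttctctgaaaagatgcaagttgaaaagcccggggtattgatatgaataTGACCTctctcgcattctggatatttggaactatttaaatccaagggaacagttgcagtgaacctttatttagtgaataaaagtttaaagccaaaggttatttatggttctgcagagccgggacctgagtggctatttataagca
Hoxb4: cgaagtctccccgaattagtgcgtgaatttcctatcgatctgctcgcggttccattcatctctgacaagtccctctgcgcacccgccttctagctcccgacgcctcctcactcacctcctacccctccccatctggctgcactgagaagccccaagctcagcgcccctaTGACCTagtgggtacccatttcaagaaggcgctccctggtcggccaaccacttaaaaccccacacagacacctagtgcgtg
Hoxb1: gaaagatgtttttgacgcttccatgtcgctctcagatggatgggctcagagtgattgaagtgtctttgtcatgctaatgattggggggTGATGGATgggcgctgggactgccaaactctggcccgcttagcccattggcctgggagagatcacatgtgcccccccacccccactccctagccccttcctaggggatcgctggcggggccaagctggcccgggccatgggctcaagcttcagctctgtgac
Hoxb8: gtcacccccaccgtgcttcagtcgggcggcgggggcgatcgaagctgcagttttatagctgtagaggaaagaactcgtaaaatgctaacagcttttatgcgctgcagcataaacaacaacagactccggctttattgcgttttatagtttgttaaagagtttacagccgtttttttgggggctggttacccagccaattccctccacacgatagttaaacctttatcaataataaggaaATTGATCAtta
AGGTCA was present 161 bases before the start of Hoxd3, 145 before that of Hoxd4 and 81 before that of Hoxb4, and it also lay 41 bases after the start of Hoxa5. It was absent from the windows of the genes that fell and had one, Hoxb1, Hoxb8 and Hoxd9. Of tested genes that did not pass, Hoxc4, Hoxd8 and Hoxd10 had it and Hoxa3, Hoxa6, Hoxa7 and Hoxd1 did not. Hoxa4 and Hoxb3, which rose, and Hoxb6, Hoxb7 and Hoxb9, which fell, had no window. In all, 7 of 24 Hox windows (29.2%) held it, against 16.3% of 32851 promoters of the same length. TGATNNAT lay 162 bases before the start of Hoxb1 and 11 before that of Hoxb8, and was in 4 of 24 Hox windows (16.7%) against 8.85% of all promoters. Of the motifs not shown, CCAAT was in 15 Hox windows (62.5%, against 37.4% of all promoters) and the TATA box TATAAA in 4 (16.7%, against 13.6%). The MEIS motif TGACAG was in 2 (8.33%, against 19.2%) and the ETS motif CCGGAA in 2 (8.33%, against 14.9%). These matches are descriptions of letters in the windows, and their part in the changes was not tested. The start used by RefSeq for Hoxd4 lies inside the GENCODE model of the gene, which begins beside Hoxd3.

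Cell types of the tissue also differed between the groups, and Hox genes are used by both mesenchyme and epithelium. Over all genes tested 42.8% were called, 20.8% higher and 22.1% lower, which is the background for the marker counts. In whole tissue, fewer cells of a type and less RNA per cell cannot be told apart. Of 14 tested fibroblast and mesenchyme markers 7 were lower and 0 higher in busulfan, with a median log2 change of -0.55 and sums of 252 to 366 FPKM in busulfan and 419 to 523 FPKM in DMSO. Of 13 endothelial markers 9 were lower and 0 higher, with sums of 89.1 to 103 FPKM in busulfan and 132 to 146 FPKM in DMSO. Of 11 smooth muscle markers 2 were lower, Actg2 and Mylk, and Acta2 stood at 262 ± 16.8 FPKM in busulfan and 250.3 ± 15.1 in DMSO. None of the fibroblast, endothelial or smooth muscle markers was at 0 in every library. Principal cell markers had 2 higher and 6 lower of 9, basal cell markers 2 higher and 4 lower of 7, clear and narrow cell markers 3 higher and 2 lower of 6, macrophage and leukocyte markers 1 higher and 2 lower of 9, ciliated efferent duct markers 1 higher and 0 lower of 5, and sperm and spermatid transcripts 1 higher and 5 lower of 7. Busulfan replicate 3, with the lowest fibroblast sum, was the lowest of its group for 12 of the 25 tested Hox genes, and busulfan replicate 1, with the highest, was the highest for 15. The DMSO libraries did not follow this order. DMSO replicate 3, with the highest fibroblast sum, was the highest for 8 and the lowest for 10. DMSO replicate 2, with the lowest sum, was the highest for 7 and the lowest for 8. The same counts over all genes were not made. The part of the cell type differences in the Hox results was not tested.

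Of the cofactors that bind DNA with Hox proteins, Pbx3 fell the most. It had 3.55, 3.15 and 3.83 FPKM in busulfan and 9.95, 8.88 and 9.47 FPKM in DMSO, well separated (log2 change -1.21, limma adjusted p = 1.32e-05). Of 8 tested cofactors 2 rose, among them its relative Pbx2 at 1.33-fold (limma adjusted p = 0.0087), 1 fell and 5 did not pass, among them Meis1 and Meis2 (median log2 change of the list 0.12). Among 15 trithorax-type activators 5 rose and 1 fell, with a median of 0.13. The H3K4 methyltransferase genes Kmt2d, Kmt2b, Kmt2c and Kmt2a rose 1.69-fold, 1.49-fold, 1.49-fold and 1.29-fold, Dot1l also rose, and Psip1 fell. Among 25 tested Polycomb genes 5 rose and 3 fell, with a median of 0.01. Pcgf6, Pcgf2 and Pcgf3, which encode RING finger subunits, rose 1.31-fold, 1.23-fold and 1.22-fold, Phc1 stood at 8.61 ± 0.525 FPKM in busulfan and 11.3 ± 0.748 in DMSO, and the methyltransferase gene Ezh2 did not pass (limma adjusted p = 0.0641). The shares called were 37.5%, 40% and 32% of the 3 lists, against 42.8% of all genes tested, and these counts were not stable. With equal summed FPKM 10 trithorax-type genes were higher and 0 lower, and 10 Polycomb genes were higher and 0 lower. The trithorax-type genes higher were 3 without busulfan replicate 1 and without DMSO replicate 1 or 3. The Polycomb genes higher were 0 without busulfan replicate 2, 1 without DMSO replicate 1, and 3 without busulfan replicate 1 or 3 or DMSO replicate 3. The cofactors higher were 1 without busulfan replicate 1 or 2 or DMSO replicate 2.

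Most noncoding RNA genes within the clusters were under the limit for testing. Of the 17 with values, 5 were tested and 1 passed, or 20% against 42.8% of all genes tested. This was Haglr, which starts beside Hoxd1 and ends at the border of Hoxd3 on the opposite strand, and it rose. It had 4.83, 5.58 and 5.64 FPKM in busulfan and 3.27, 2.27 and 2.33 FPKM in DMSO, with no overlap (2.04-fold, log2 change 0.82, limma adjusted p = 0.000962). Such separation upward was seen in 26.9% of all genes tested. Hotairm1, at the anterior end of the Hoxa cluster and the most abundant of the list, had 64.4, 77.3 and 66.0 FPKM in busulfan and 76.6, 65.5 and 85.5 FPKM in DMSO and did not pass (limma adjusted p = 0.363). Hoxb5os, Hoxd3os1 and 5730457N03Rik did not pass either, and Hotair, Hottip and 6 microRNA genes were listed at 0 in all libraries. Libraries of polyadenylated RNA are not made to capture mature microRNAs, so the values of the microRNA genes do not show whether these were present. Outside the clusters, 22 flanking genes were tested, of which 1 rose and 3 fell, or 18.2% called against 42.8% of all genes. This count turned with the scaling: with libraries set to equal summed FPKM 10 flanking genes were higher and 2 lower. Skap1, next to the Hoxb cluster, had the largest change among them, at 8.03, 7.12 and 7.93 FPKM in busulfan and 14.6, 12.5 and 12.3 FPKM in DMSO (log2 change -0.70, limma adjusted p = 0.000313). Calcoco1 fell to 29.7 ± 0.525 FPKM in busulfan against 43.4 ± 1.79 FPKM in DMSO, Tax1bp1 also fell and Nfe2l1 rose 1.18-fold, while 18 did not pass, Evx1 and Lnp at the ends of the Hoxa and Hoxd clusters among them.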

How the data were processed

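Polyadenylated RNA from the initial segment and caput was made into libraries with a stranded mRNA kit, per the labels' protocols. The authors deposited 1 table of normalized FPKM for 24346 genes in 6 libraries, a unit named per the file headers. The submitters' processing notes name TopHat2 2.1.1, Cufflinks 2.2.1 and mm10. Annotation, strand setting and normalization between libraries were not given in the sources used here. Whether the values are relative to the library total is therefore not known. Where values are, a fall of very abundant genes can make the others appear higher. The median log2 change of all genes tested was -0.003 with the deposited values. It was -0.001 with median ratio scaling and 0.13 with libraries set to equal summed FPKM.

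The test was limma 3.58.1 (R 4.3.3, trended prior, all 6 libraries) on log2(FPKM + 1) of the 12848 genes whose mean reached 1 FPKM, with Benjamini-Hochberg adjustment at 0.05. Log2 changes are busulfan minus DMSO and understate low genes. Folds are ratios of group means. Every Hox gene reaching a mean of 1 FPKM is named, with up to 4 members of each linked list by the size of a change past the threshold; Dot1l, Psip1, Meis1, Meis2, Ezh2, Evx1, Lnp and the untested members were named after their values were seen, and so were the marker genes and the noncoding RNAs beside Haglr. The members and all lists were chosen with earlier results of these data known.

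Gene models came from GENCODE M21 (GRCm38, also called mm10), matched by symbol for all 39 members. Depth was estimated from the spacing of low values of genes with 1 transcript model over 2000 bases. Of 428 to 472 such values per library, 76.5% to 79.2% were whole within 0.1, where chance gives 20%, but step and length offset were fitted on the same values and carry the authors' normalization, so counts were not recovered. No pair of libraries had identical values. Some members of these lists are not reported here. Figures were drawn with matplotlib 3.10.9. Alternatives changed the pseudocount, the filter, the scaling, the trend, the replicate block and the libraries.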

Additional observations from a re-analysis of the deposited data

How the results depend on the processing

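Of the 12 Hox genes past the threshold, 9 kept their call in every alternative run. The exceptions were Hoxa5, lost in 5 alternatives (adjusted p 0.0515 to 0.0804), Hoxb9, lost in 9 (0.0571 to 0.582), and Hoxd9, lost in 8 (0.063 to 0.738). Over 340 values of single Hox genes, 302 kept direction and side of the threshold, 22 lost and 10 gained a call, and 6 changed sign. Leaving out 1 library gave 5 to 8 Hox genes higher and 4 to 6 lower, 2095 to 2407 of all genes higher and 2299 to 2681 lower, and 16 to 21 genes of the linked lists higher (26 with all libraries; 16 without busulfan replicate 2, 17 without DMSO replicate 1) and 13 to 15 lower; the ratio of summed Hox levels was 0.899 to 0.9175. Scaling libraries to equal summed FPKM moved the median log2 change of all genes to 0.13, and it called 4578 genes higher and 1594 lower (74.2% higher, against 48.5%), 46 genes of the linked lists higher and 8 lower; quantile normalization gave 58.4% higher. As a share of the library sum, the ratio of summed Hox levels was 1.0147, against 0.9084. The signs that changed belong to genes near 0: with 1 library left out Hoxb2 ran between -0.0269 (without busulfan replicate 1; -0.0059 without DMSO replicate 3) and 0.0715, Hoxb5 reached -0.0128 without DMSO replicate 3, and Hoxc5 ran between -0.0735 and 0.0336 (without busulfan replicate 2; 0.0029 without DMSO replicate 2) and was 0.0576 with equal sums. Hoxd8 gained a call with equal sums (adjusted p = 0.00913) and quantile normalization (0.0295), and Hoxc9 with equal sums (0.0191), without a trend (0.0434) and without DMSO replicate 1 (0.0182), and Hoxc8 without DMSO replicate 3 (0.0339). Same-numbered libraries did not deviate together (correlations -0.18, -0.02 and -0.18); with the replicate block 4627 genes were called and 6 Hox genes were higher and 4 lower, without Hoxb9 (adjusted p = 0.0833) and Hoxd9 (0.0868). For the lost and gained calls the cause was not tested. Depth limits genes of a few FPKM, which rest on few fragments.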

Other observations

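Homeobox genes outside the Hox clusters also moved in both directions. Of 83 in the list 35 were tested, 12 higher and 7 lower in busulfan, or 54.3% against 42.8% of all genes, with a median log2 change of 0.02. Pax2, which acts together with Pax8 in forming the Wolffian duct, had 17.9, 19.5 and 21.3 FPKM in busulfan and 12.0, 10.5 and 9.63 FPKM in DMSO (1.83-fold, limma adjusted p = 0.000226). Pax8, named after its values were seen, went the other way, with 48.6, 49.8 and 56.0 FPKM in busulfan and 75.5, 74.8 and 81.3 FPKM in DMSO (limma adjusted p = 0.000239). Neither gene's groups overlapped.

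The 3 largest falls of the list were in Zhx3, Tshz2 and Prrx1. Zhx3 had 2.12, 2.36 and 2.70 FPKM in busulfan and 6.18, 7.52 and 7.78 FPKM in DMSO. Tshz2, of the teashirt family, had 25.0, 24.2 and 20.9 FPKM in busulfan and 41.5, 45.2 and 47.0 FPKM in DMSO. Prrx1, a gene of mesenchyme, had 18.5, 19.4 and 18.2 FPKM in busulfan and 28.6, 34.2 and 34.5 FPKM in DMSO, beside the lower fibroblast markers already described; the part of those markers in this fall was not tested.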
